A study of Mus musculus with 9 samples.

Results

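The semaphorin, plexin, neuropilin, Slit, Robo and netrin genes are the classical families of axon guidance. They were chosen by symbol, and all 45 listed symbols were found among the 38560 genes of the count table. The members were 7 secreted class 3 semaphorins, 13 membrane semaphorins, 9 plexins, 2 neuropilins, 3 Slits, 3 Robos, 2 netrins and 6 netrin receptors.

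Guidance ligands are secreted or membrane proteins that steer growing axons, and they also guide migrating cells and sprouting vessels outside the nervous system. Semaphorins signal through plexins, and most class 3 semaphorins bind a neuropilin that is paired with a class A plexin. Slits bind Robo receptors, and netrins bind Dcc, neogenin and the Unc5 receptors. In the fetal testis, Sertoli cells form the testis cords around the germ cells, while the interstitium between the cords holds vessels, steroid-making fetal Leydig cells and their progenitors.

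RNA was sequenced from 3 populations sorted by flow cytometry from testes of Sf1-eGFP mouse fetuses at 12.5 days post coitum, named Leydig, Sertoli and Interstitial in the labels. All 3 carry the same reporter strain, in which green fluorescence reports the gene of SF1, a factor of Sertoli and steroid-making cells, and all were depleted of cells that bind an antibody to CD31, a surface protein of endothelial and germ cells. RNA of about 10 sorts went into each pool, and samples A, B and a mix of both were made per population with 100 ng of RNA each. Replicate C was taken as the mix by elimination, which the labels do not state, so tests used A and B (n = 2 pools per population), and C is shown as a value only. The p-values therefore rest on the spread of pools and not of animals, and the sources used here do not give the gates of the sort.

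Reads assigned to genes numbered 33.12 to 39.24 M (M, 1e6) across the 9 libraries. Levels are given as counts per 1000000 reads in genes (CPM) after TMM scaling, which aligns libraries on the bulk of their genes, and 3 reads correspond to 0.0733 to 0.0903 CPM. The Leydig sort must be read by its label only. Of 8 fetal Leydig markers, 8 were called higher there than in Interstitial, but 1 was called higher and 1 lower than in Sertoli, with summed levels of 285 to 513 CPM in the Leydig and 389 to 432 CPM in the Sertoli libraries. The 10 Sertoli markers summed to 4077 to 4330 CPM in Sertoli, 1311 to 1373 CPM in Leydig and 280 to 320 CPM in Interstitial. Because these are sorted bulk samples, fewer cells of a type and less RNA per cell cannot be told apart.

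The guidance genes separated the sorts in both directions. A member was called when its adjusted p was under 0.05 in edgeR's quasi-likelihood test, with the Benjamini-Hochberg adjustment over all 18048 genes tested. All 45 members passed the filter on low counts. Between Interstitial and Sertoli, 39 of 45 were called against 61.8% of all genes tested, 20 of them higher in Interstitial (32.7% of all genes) and 19 higher in Sertoli (29.1%). Between Leydig and Sertoli, 38 were called against 37.5% of all genes, 19 higher in Leydig (16.9%) and 19 higher in Sertoli (20.6%). Between Leydig and Interstitial, 31 were called against 45.1%, 22 higher in Leydig (22%) and 9 higher in Interstitial (23.2%). The median of the members' highest population mean was 54.5 CPM, against 18.0 CPM for all genes tested, and with genes under 1 CPM left out the all-gene shares were 65.8%, 42% and 50% in the same order of comparisons.

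Counted by size, 14 members were called and at least 2-fold higher in Sertoli than in Interstitial (11.9% of all genes) and 13 the other way (16%). In Leydig against Sertoli these counts were 12 higher in Leydig (7.18%) and 8 higher in Sertoli (6.54%). In Leydig against Interstitial they were 9 higher in Leydig (5.7%) and 2 higher in Interstitial (9.56%). The term enriched is used for a member whose level in 1 sort exceeded each of the other two by 2-fold or more, with both differences called. By that measure 8 members were enriched in Sertoli (5.71% of all genes), namely Sema3b, Sema4a, Sema5a, Sema5b, Sema6c, Sema7a, Plxnb3 and Ntn4. Ntn1 was the 1 member enriched in Interstitial (8.42%). None was enriched in Leydig with edgeR, DESeq2 or limma voom (0.31% of all genes), and at any size 4 members, Slit2, Robo2, Nrp2 and Plxnd1, were called higher in Leydig than in both other sorts (3.72%). The summed level of 7 smooth muscle and pericyte markers was 170 to 199 CPM in Leydig, 126 to 139 CPM in Interstitial and 116 to 133 CPM in Sertoli. That of 10 interstitial progenitor markers was 1657 to 1851, 1502 to 1611 and 451 to 469 CPM. Both sums were highest in Leydig, but single markers were split between Leydig and Interstitial. Of the 7, 3 were called higher in Leydig and 2 in Interstitial, and of the 10, 4 and 4. None of these markers was at 0 in all libraries of a sort, and their part in the 4 genes was not tested. No member was 2-fold above both others in Leydig at an unadjusted p under 0.05 either. At any size 17 members were called higher in Sertoli than in both others (17.6%) and 9 in Interstitial (19.7%). Counting library values alone, replicates A, B and C of the 2 sorts did not overlap for 41 members in Leydig against Sertoli (57.8% of all genes), 38 in Leydig against Interstitial (65.5%) and 41 in Interstitial against Sertoli (74.6%).

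**Figure D1:**
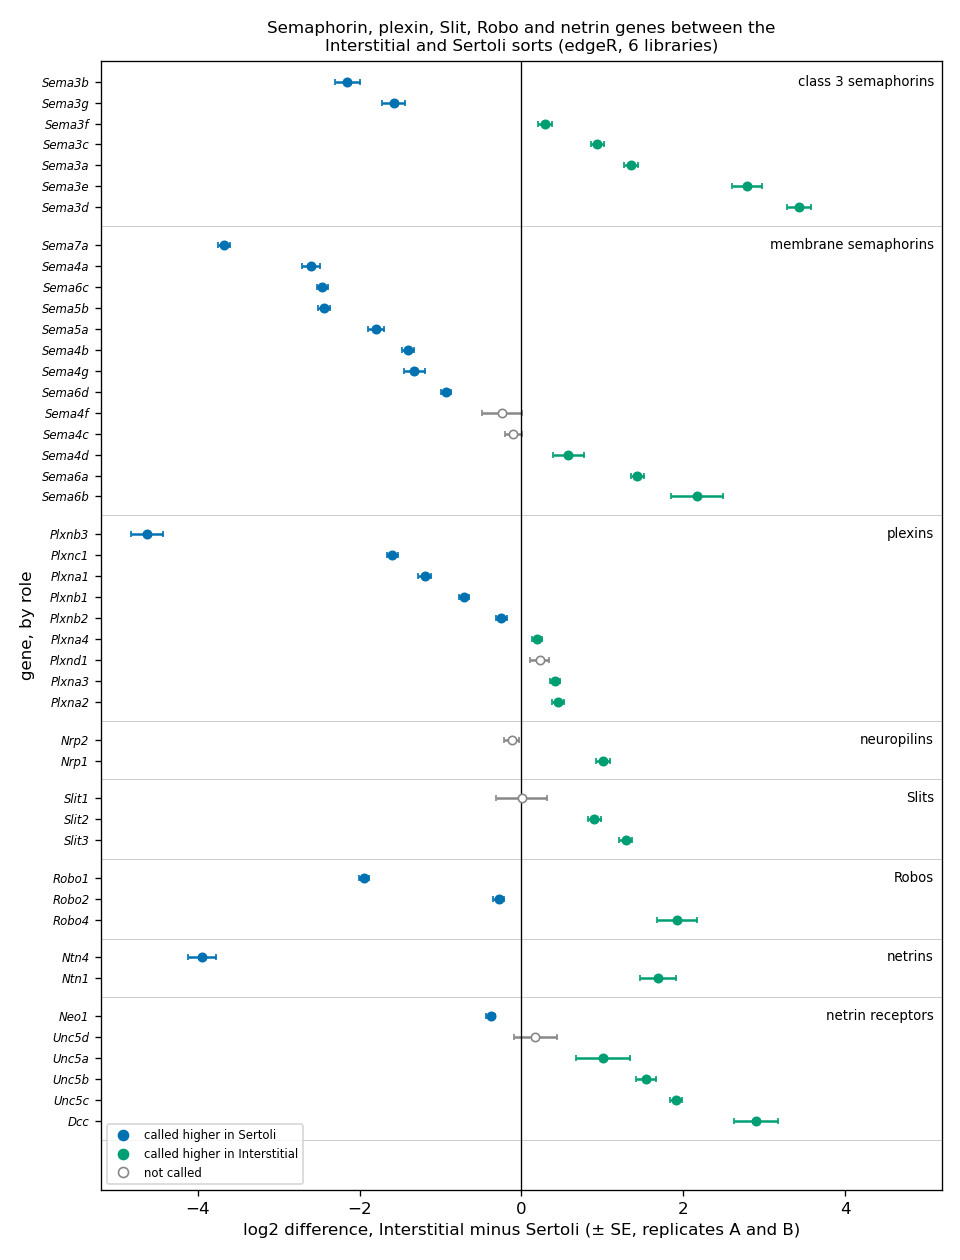
Log2 difference between the Interstitial and Sertoli sorts for each of the 45 genes, grouped by role, with the standard error of the fit over replicates A and B. Points left of 0 are higher in Sertoli, and the membrane semaphorins lie mostly there (8 called of 13), while 5 of 7 class 3 semaphorins and 4 of 6 netrin receptors were called higher in Interstitial.

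The largest called differences at 5 CPM or more were those of Plxnb3 and Ntn4 on the Sertoli side and of Sema3d and Sema3e on the Interstitial side. Their upstream sequences are shown because these 4 genes span the range of the data. RefSeq windows of GRCm38.p6 were found for 36 of 45 members. Each line gives the 240 bases from 250 to 11 before the RefSeq start, on the plus strand, at chrX:73756853-73757092 for Plxnb3, chr10:93640799-93641038 for Ntn4, chr5:12382916-12383155 for Sema3d and chr5:14025026-14025265 for Sema3e. The Ntn4 window lies inside the gene span that GENCODE annotates (chr10:93640681-93747207), upstream of a later start. Capitals mark the letters of a SOX motif.
Plxnb3: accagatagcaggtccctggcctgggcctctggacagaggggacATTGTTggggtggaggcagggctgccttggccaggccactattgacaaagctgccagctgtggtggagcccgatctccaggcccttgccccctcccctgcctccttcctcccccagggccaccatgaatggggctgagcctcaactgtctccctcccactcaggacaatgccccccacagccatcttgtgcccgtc
Ntn4: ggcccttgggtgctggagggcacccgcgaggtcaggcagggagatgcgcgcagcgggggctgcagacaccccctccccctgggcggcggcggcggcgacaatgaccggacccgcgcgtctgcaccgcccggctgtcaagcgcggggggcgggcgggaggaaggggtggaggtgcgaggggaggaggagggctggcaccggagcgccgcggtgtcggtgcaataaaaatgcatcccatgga
Sema3d: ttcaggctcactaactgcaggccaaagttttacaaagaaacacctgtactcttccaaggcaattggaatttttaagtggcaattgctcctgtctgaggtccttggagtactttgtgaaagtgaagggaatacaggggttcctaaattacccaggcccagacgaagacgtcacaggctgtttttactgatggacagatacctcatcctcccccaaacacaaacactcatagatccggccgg
Sema3e: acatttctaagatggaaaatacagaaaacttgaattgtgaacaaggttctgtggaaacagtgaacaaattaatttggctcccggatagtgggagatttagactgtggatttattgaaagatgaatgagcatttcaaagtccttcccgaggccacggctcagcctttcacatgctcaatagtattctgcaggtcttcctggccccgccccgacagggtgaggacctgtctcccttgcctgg
The letters searched on both strands were AACAAT for SOX factors, CAAGGTCA for SF1, AGATAA for GATA factors and TATAAA for a TATA box. Plxnb3 held the SOX letters on its reverse strand, with the first base 206 before the start, and the other 3 windows held none of the 4 motifs. Of the 11 windows of Sertoli-enriched members, 1 held the SOX letters (9.09%, near the 9.42% of all windows in the table). Of the 11 windows of members at least 2-fold higher in Interstitial, 0 held them. Over all 49 windows of the members, the SOX letters were in 2 (4.08%, against 9.42% of 32851 windows in the table), the SF1 letters in 1 (2.04% against 1.33%), the GATA letters in 1 (2.04% against 9.99%) and the TATA letters in 1 (2.04% against 12.4%). The members' windows had a median GC content of 64.4% and 14 CpG, against 52.4% and 6 for all windows, and the 11 windows of Sertoli-enriched members (64%) and the 11 of members at least 2-fold higher in Interstitial (64.4%) had nearly equal GC content.

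Class 3 semaphorins are secreted, and their 7 genes divided in direction between the Sertoli sort and the other sorts. In both Interstitial and Leydig, 5 of 7 were called higher than in Sertoli (71.4%, against 32.7% and 16.9% of all genes), and 2, Sema3b and Sema3g, were called lower (28.6%, against 29.1% and 20.6%). Sema3d stood at 53.9, 55.1 and 59.5 CPM in Interstitial A, B and C, 28.8, 34.5 and 29.1 CPM in Leydig, and 4.27, 5.87 and 4.95 CPM in Sertoli. No library of 1 sort overlapped another, and the gene was 10.8-fold higher in Interstitial than in Sertoli (log2 3.43 ± 0.15 SE, adjusted p = 2.39e-07) and 6.25-fold higher in Leydig than in Sertoli (adjusted p = 4.04e-06).

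Sema3e, which binds plexin D1 without a neuropilin, was under 1 CPM in every Sertoli library. Its levels were 6.23, 7.08 and 7.67 CPM in Interstitial, 5.92, 5.75 and 5.36 CPM in Leydig, and 0.924, 0.994 and 0.442 CPM in Sertoli. The Sertoli libraries were lowest throughout, with a 6.92-fold difference from Interstitial (log2 2.79 ± 0.18 SE, adjusted p = 2.94e-06), while Leydig and Interstitial did not differ by the test (adjusted p = 0.342).

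Sema3a, a repellent that acts through neuropilin 1, measured 62.9, 57.7 and 64.5 CPM in Interstitial, 47.6, 49.3 and 48.5 CPM in Leydig, and 22.1, 25.1 and 23.9 CPM in Sertoli. The 3 sorts did not overlap, and the difference between Interstitial and Sertoli was 2.55-fold (log2 1.35 ± 0.09 SE, adjusted p = 2.47e-06). Sema3c followed the same order with means of 73.6 ± 0.38 CPM in Interstitial, 62.6 ± 5.73 CPM in Leydig and 38.4 ± 0.253 CPM in Sertoli (SD, n = 2). Sema3f, a ligand of neuropilin 2, varied little, from 42.9 ± 1.91 CPM in Sertoli to 54.2 ± 6.41 CPM in Leydig.

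Sema3b and Sema3g ran the opposite way. Sema3b (chr9:107597674-107609229) had 15.4, 16.1 and 14.1 CPM in Sertoli, 5.62, 5.55 and 5.84 CPM in Leydig, and 3.03, 4.09 and 3.22 CPM in Interstitial, which made it 4.44-fold higher in Sertoli than in Interstitial (log2 of Interstitial against Sertoli, -2.15 ± 0.16 SE, adjusted p = 5.44e-06). For Sema3g the values were 39.1, 42.0 and 38.4 CPM in Sertoli, 29.9, 24.2 and 26.7 CPM in Leydig, and 15.3, 11.7 and 15.2 CPM in Interstitial. Every Sertoli library was above every Leydig library, and every Leydig library above every Interstitial one, for both genes.

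Several smaller calls of the class 3 genes were lost when 1 library was left out. Sema3a in Leydig against Interstitial (log2 -0.32) lost it without Leydig A (-0.29) or Interstitial A (-0.26), with adjusted p from 0.000115 to 0.0869 over 15 alternatives, and Sema3b in that comparison (0.66) without Interstitial A (0.44, adjusted p from 0.000145 to 0.0785). Sema3c in Leydig against Interstitial (-0.23) kept the call in 9 of the 15, with adjusted p from 0.000622 to 0.175, and lost it without Leydig B (-0.15), and at a like size without Sertoli A or B (-0.23 in both) or Interstitial A or B (-0.25 in both). Sema3f in Leydig against Sertoli (0.34) lost it without Leydig A (0.21), Sertoli A (0.38) or Sertoli B (0.29), and in Interstitial against Sertoli (0.29) without Sertoli B (0.24), with adjusted p up to 0.114 and 0.127. Sema3g in Leydig against Sertoli (-0.59) lost it without Leydig B (-0.39) or Sertoli B (-0.53), with adjusted p up to 0.0757.

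Of 13 membrane semaphorins, 9 were called higher in Sertoli than in Leydig (69.2%, against 20.6% of all genes) and 8 higher in Sertoli than in Interstitial (61.5% against 29.1%). The other way, 2 were called higher in Leydig (15.4% against 16.9%) and 3 in Interstitial (23.1% against 32.7%). Summed per length of exon, the 13 genes gave 137 ± 4.95 CPM per kb in Sertoli, 76.1 ± 3.0 CPM per kb in Leydig and 46.0 ± 1.5 CPM per kb in Interstitial (SD, n = 2).

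Sema7a (chr9:57940112-57962865) encodes a semaphorin held in the membrane by a lipid anchor, and it binds plexin C1 and beta1 integrins. Sertoli libraries A, B and C had 88.5, 93.6 and 88.6 CPM, the Leydig libraries 30.0, 29.9 and 29.2 CPM, and the Interstitial libraries 7.08, 7.14 and 6.20 CPM. The sorts were far apart, with a 12.8-fold difference between Sertoli and Interstitial (log2 of Interstitial against Sertoli, -3.68 ± 0.08 SE, adjusted p = 7.81e-09) and a 3.04-fold difference between Sertoli and Leydig (adjusted p = 1.53e-06).

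Sema5a and Sema5b carry thrombospondin repeats next to the semaphorin domain. Sema5a (chr15:32244810-32696341) reached 315, 344 and 311 CPM in Sertoli, 161, 157 and 164 CPM in Leydig, and 105, 84.1 and 97.0 CPM in Interstitial. Sema5b (chr16:35541145-35664732) had 152, 162 and 147 CPM in Sertoli, 75.9, 69.3 and 75.6 CPM in Leydig, and 27.5, 30.3 and 27.0 CPM in Interstitial. Neither gene overlapped between sorts, and the excess of Sertoli over Interstitial was 3.48-fold for Sema5a (adjusted p = 1.26e-06) and 5.44-fold for Sema5b (adjusted p = 4.75e-08). The enrichment of Sema5a rests on a Sertoli to Leydig difference near the 2-fold line (log2 of Leydig against Sertoli, -1.05 ± 0.10 SE), and it fell to -0.99 without Leydig B, -0.99 without Sertoli B, -0.97 with all 9 libraries and -0.95 when libraries were scaled by total reads.

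Sema6c (chr3:95160457-95174024), a ligand of class A plexins, showed 119, 122 and 113 CPM in Sertoli, 48.1, 44.8 and 45.2 CPM in Leydig, and 22.2, 21.6 and 19.4 CPM in Interstitial. Sema4a (chr3:88435959-88461182), best known from immune cells, showed 34.1, 33.3 and 30.4 CPM in Sertoli, 13.8, 13.2 and 14.1 CPM in Leydig, and 6.08, 5.01 and 4.87 CPM in Interstitial. Both followed the order Sertoli, Leydig, Interstitial without overlap, by 5.51-fold for Sema6c (adjusted p = 2.4e-08) and 6.05-fold for Sema4a (adjusted p = 2.26e-07) between the extremes.

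Sema4b and Sema4g kept the same order at smaller size. Sema4b gave 80.1, 82.5 and 79.0 CPM in Sertoli, 50.3, 46.4 and 47.5 CPM in Leydig, and 29.9, 31.7 and 27.6 CPM in Interstitial. Sema4g gave 29.7, 25.5 and 24.3 CPM, then 17.3, 14.4 and 15.3 CPM, then 12, 10.0 and 10.7 CPM in the same order of libraries. No sorts overlapped for either gene, and the Sertoli level exceeded the Interstitial one by 2.64-fold (adjusted p = 7.03e-07) and 2.5-fold (adjusted p = 4.03e-05). Sema6d, another class A plexin ligand, was called in that order with means of 145 ± 7.48, 126 ± 2.37 and 75.6 ± 1.59 CPM.

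Sema6a, Sema6b and Sema4d were called highest or higher outside the Sertoli sort. Sema6a measured 53.7, 49.6 and 51.2 CPM in Interstitial, 40.0, 40.5 and 41.0 CPM in Leydig, and 18.9, 19.3 and 19.2 CPM in Sertoli, without overlap (2.70-fold between the extremes, adjusted p = 8.19e-07). Sema6b was low, at 3.01, 2.30 and 2.58 CPM in Interstitial, 1.98, 1.47 and 1.54 CPM in Leydig, and 0.751, 0.422 and 0.581 CPM in Sertoli, and was 4.5-fold higher in Interstitial than in Sertoli (adjusted p = 0.000437).

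Sema4d, the ligand of plexin B1, was called lowest in Leydig. It stood at 12.1, 15.5 and 12 CPM in Interstitial, 8.72, 9.70 and 9.21 CPM in Sertoli, and 4.66, 7.02 and 6.14 CPM in Leydig. No libraries overlapped between sorts, and Interstitial exceeded Leydig by 2.35-fold (log2 of Leydig against Interstitial, -1.23 ± 0.20 SE, adjusted p = 0.00141). The 9 macrophage markers summed to 53.6 to 78.3 CPM in Interstitial, 18.6 to 29.8 CPM in Leydig and 4.79 to 5.86 CPM in Sertoli, where Fcgr1 had no read in any library, and their part in the result was not tested. Sema4c, a ligand of plexin B2, ranged from 34.7 ± 2.57 CPM in Interstitial to 44.6 ± 4.01 CPM in Leydig, and Sema4f was at most 1.38 CPM and called in no comparison.

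Several membrane semaphorin calls were also lost under an alternative. Sema6d in Leydig against Sertoli (log2 -0.20) was called in 6 of 15 alternatives, with adjusted p from 0.0154 to 0.279, and lost the call without Leydig A (-0.22), Leydig B (-0.14), Sertoli B (-0.15), Interstitial A (-0.16) or Interstitial B (-0.16). Sema4d lost the call in Leydig against Sertoli (-0.65) without Leydig A (-0.39), Sertoli A (-0.73) or Sertoli B (-0.58), and in Interstitial against Sertoli (0.58) without Sertoli A (0.50), Sertoli B (0.65) or Interstitial B (0.45), with adjusted p up to 0.163 and 0.154. In Leydig against Interstitial, Sema4c (0.36) lost it without Leydig A (0.27) or Interstitial B (0.27), and Sema4g (0.53) without Leydig A (0.39) or Interstitial B (0.39), with adjusted p up to 0.155 and 0.102. Sema6b in Leydig against Sertoli (1.54) lost it without Sertoli B (1.19), with adjusted p up to 0.0556.

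**Figure D2:**
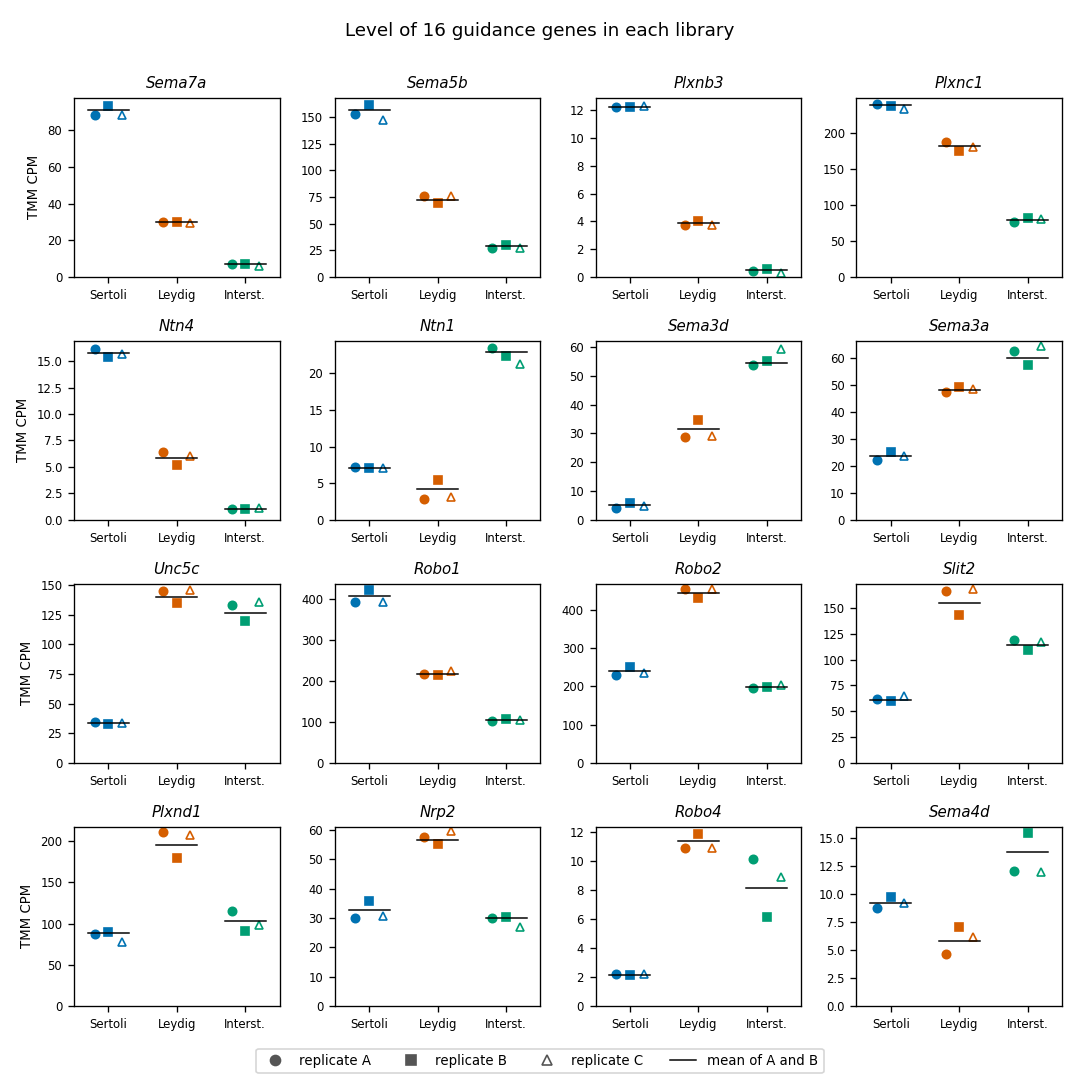
TMM CPM of 16 genes in each library, with replicates A (circle), B (square) and C (open triangle) of the Sertoli, Leydig and Interstitial sorts, and a line at the mean of A and B. Sema7a falls from Sertoli through Leydig to Interstitial, Sema3d rises in that order, and Robo2 is highest in Leydig, at 431 to 456 CPM.

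Among the 9 plexins, the receptors of the semaphorins, 5 were called higher in Sertoli than in Interstitial (55.6%, against 29.1% of all genes) and 3 higher in Interstitial (33.3% against 32.7%). Plxnb3 (chrX:73757090-73772514), a receptor of Sema5a, had the largest difference of all members, with 12.2, 12.2 and 12.3 CPM in Sertoli, 3.72, 4.06 and 3.76 CPM in Leydig, and 0.415, 0.576 and 0.271 CPM in Interstitial. The Interstitial libraries held 17, 20 and 11 reads of it. It was 24.8-fold higher in Sertoli than in Interstitial (log2 of Interstitial against Sertoli, -4.63 ± 0.20 SE, adjusted p = 2.2e-07) and 3.14-fold higher than in Leydig (adjusted p = 5.46e-05).

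Plxnc1, the receptor of Sema7a, was lowest in Interstitial. Its levels were 241, 238 and 234 CPM in Sertoli, 188, 175 and 181 CPM in Leydig, and 76.3, 82.1 and 81.1 CPM in Interstitial, a 3.03-fold range (adjusted p = 1.82e-07 for Interstitial against Sertoli). Plxna1, which pairs with neuropilins for class 3 semaphorins, had 277, 317 and 270 CPM in Sertoli, 189, 178 and 185 CPM in Leydig, and 125, 134 and 120 CPM in Interstitial. In both genes the libraries of the 3 sorts stood apart, with Leydig in the middle.

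Plxnd1, the receptor of Sema3e with a known role in vessel patterning, was highest in Leydig. Leydig A, B and C had 211, 180 and 208 CPM, Interstitial 116, 90.9 and 98.8 CPM, and Sertoli 86.9, 89.9 and 77.7 CPM. Leydig exceeded Sertoli by 2.21-fold (log2 1.14 ± 0.12 SE, adjusted p = 8.94e-05) and Interstitial by 1.89-fold (log2 0.92 ± 0.12 SE, adjusted p = 0.000382), while Interstitial and Sertoli were not called apart (adjusted p = 0.124). Without Leydig B the second difference was 1.02 and without Interstitial A 1.09, both past 2-fold.

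The remaining plexins differed by less than 2-fold. Plxnb2, the receptor of Sema4c, ranged from 287 ± 4.07 CPM in Interstitial to 348 ± 26.8 CPM in Leydig, and Plxnb1, that of Sema4d, from 135 ± 2.14 CPM in Interstitial to 221 ± 8.0 CPM in Sertoli. The class A plexins Plxna2, Plxna3 and Plxna4 were called higher in Interstitial than in Sertoli by 1.36-fold, 1.33-fold and 1.14-fold. In Leydig against Interstitial, Plxnb1 (log2 0.18) was called in 9 of 15 alternatives and lost without Leydig A (0.14), Interstitial A (0.19) or Interstitial B (0.15), with adjusted p up to 0.222, and Plxnb2 (0.28) without Leydig A (0.20) or Interstitial B (0.25), with adjusted p up to 0.0819. In Interstitial against Sertoli, Plxnb2 (-0.25) lost the call without Interstitial A (-0.21) or B (-0.18) and with scaling by total reads (-0.08), with adjusted p up to 0.303, and Plxna4 (0.19) without Sertoli A or B (0.19 in both, adjusted p up to 0.0816). Plxna3 in Leydig against Sertoli (0.29) lost it without Leydig A (0.25) or Sertoli A (0.27), with adjusted p up to 0.0691.

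The neuropilins, co-receptors of class 3 semaphorins that also bind VEGF, were both called higher in Leydig than in Sertoli. Nrp1 had 61.8, 58.0 and 59.3 CPM in Leydig, 60.9, 57.1 and 57.4 CPM in Interstitial, and 31.0, 27.6 and 30.1 CPM in Sertoli. Leydig and Interstitial overlapped for Nrp1, and each was above Sertoli by about the same amount (2.05-fold and 2.01-fold, adjusted p = 2.35e-05 and 1.12e-05). Nrp2 had 57.8, 55.4 and 59.6 CPM in Leydig, 30.1, 30.3 and 27.1 CPM in Interstitial, and 30.0, 35.7 and 30.7 CPM in Sertoli, where the latter sorts overlapped. Leydig exceeded Interstitial by 1.88-fold (adjusted p = 0.000125) and Sertoli by 1.72-fold (adjusted p = 0.000193).

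Slit2 and Slit3, the secreted ligands of the Robo receptors, were lowest in Sertoli. Slit2 (chr5:47983138-48307733) had 167, 144 and 168 CPM in Leydig, 119, 110 and 117 CPM in Interstitial, and 61.7, 60.4 and 65.0 CPM in Sertoli. It was 2.54-fold higher in Leydig than in Sertoli (log2 1.34 ± 0.08 SE, adjusted p = 6.26e-06) and 1.36-fold higher than in Interstitial (adjusted p = 0.00252), without overlap. Slit3 was highest in Interstitial instead, with 38.7, 39.7 and 35.8 CPM there, 29.6, 26.8 and 28.2 CPM in Leydig, and 15.8, 16.3 and 14.0 CPM in Sertoli (2.44-fold between the extremes, adjusted p = 2.91e-06). Slit1 had 30 to 57 reads per library and was called in no comparison.

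Robo1 and Robo2 differed in opposite directions between Leydig and Sertoli, while both were lowest in Interstitial. Robo1 (chr16:72308306-73046095) was highest in Sertoli, with 394, 422 and 393 CPM, against 218, 216 and 224 CPM in Leydig and 104, 109 and 106 CPM in Interstitial. The sorts did not overlap, and the range from Sertoli to Interstitial was 3.85-fold (log2 of Interstitial against Sertoli, -1.94 ± 0.06 SE, adjusted p = 5.28e-08). Robo2 (chr16:73891839-74411825) was highest in Leydig, with 456, 431 and 455 CPM, against 231, 250 and 235 CPM in Sertoli and 197, 199 and 204 CPM in Interstitial. Leydig exceeded Interstitial by 2.25-fold (log2 1.17 ± 0.07 SE, adjusted p = 5.65e-06) and Sertoli by 1.85-fold (log2 0.88 ± 0.07 SE, adjusted p = 1.54e-05).

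As a ratio of levels per length of exon, Robo2 to Robo1 was 1.99 ± 0.067 in Leydig, 1.81 ± 0.046 in Interstitial and 0.572 ± 0.0051 in Sertoli (SD, n = 2). Per length, Robo2 was above Robo1 in every Leydig and Interstitial library and below it in every Sertoli library. This pair was chosen after its values were seen, and the ratio has no test. The small difference of Robo2 between Interstitial and Sertoli (log2 -0.28) lost its call without Interstitial A (-0.22) or B (-0.23) and with scaling by total reads (-0.12), with adjusted p from 5.37e-05 to 0.177.

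Robo4, the Robo receptor known from endothelial cells, was low in Sertoli. Its levels were 10.9, 11.9 and 10.9 CPM in Leydig, 10.1, 6.13 and 8.88 CPM in Interstitial, and 2.19, 2.11 and 2.18 CPM in Sertoli. Leydig was 5.28-fold above Sertoli (log2 2.40 ± 0.24 SE, adjusted p = 8.53e-05), and Interstitial 3.79-fold above it (adjusted p = 0.000159), while Leydig and Interstitial were not called apart (adjusted p = 0.0969). All 12 endothelial markers were called higher in Leydig than in Sertoli and 11 of 12 higher in Interstitial than in Sertoli. In Leydig against Interstitial, 8 of these 12 markers were called higher in Leydig and 1 in Interstitial. Summed, they gave 216 to 245 CPM in Leydig, 192 to 233 CPM in Interstitial and 46.6 to 50.3 CPM in Sertoli, with none at 0. Their part in the levels of Robo4, Plxnd1, the neuropilins and Unc5b was not tested.

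The 2 netrin genes were opposed between Interstitial and each other sort, while both were called lower in Leydig than in Sertoli. Ntn4 (chr10:93640681-93747207), whose protein sits in basement membranes and binds laminins, had 16.2, 15.4 and 15.7 CPM in Sertoli, 6.43, 5.18 and 6.01 CPM in Leydig, and 1.03, 1.01 and 1.08 CPM in Interstitial. The sorts did not overlap, and Sertoli was 15.5-fold above Interstitial (log2 of Interstitial against Sertoli, -3.95 ± 0.17 SE, adjusted p = 2.39e-07) and 2.72-fold above Leydig (adjusted p = 7.44e-05).

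Ntn1 (chr11:68209364-68400823), the classical secreted netrin, had 23.4, 22.3 and 21.2 CPM in Interstitial, 7.22, 7.02 and 7.13 CPM in Sertoli, and 2.82, 5.50 and 3.08 CPM in Leydig. Interstitial was above every other library, by 5.48-fold over Leydig (log2 of Leydig against Interstitial, -2.45 ± 0.23 SE, adjusted p = 9.78e-05) and 3.21-fold over Sertoli (log2 1.68 ± 0.22 SE, adjusted p = 0.000206). Leydig B stood apart from Leydig A and C, and without it the difference from Interstitial grew to -3.03 and that from Sertoli from -0.77 to -1.29. The Leydig against Sertoli difference was called in 9 of 15 alternatives, with adjusted p from 0.000124 to 0.145, and lost the call without Leydig A (-0.37), Sertoli A (-0.75), Sertoli B (-0.79), Interstitial A (-0.73) or Interstitial B (-0.73).

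Markers of other cell types differed between the same libraries. The 7 germ cell markers summed to 848 to 991 CPM in Interstitial, 66.2 to 100.0 CPM in Sertoli and 55.6 (replicate A) to 237 CPM (replicate B) in Leydig. The 8 markers of mesonephric and coelomic epithelium summed to 210 to 217 CPM in Interstitial, 120 to 127 CPM in Leydig and 32.9 to 36.0 CPM in Sertoli, and the 6 erythroid markers to 5116 to 5521 CPM in Interstitial and at most 142 CPM elsewhere. None of these genes was at 0 in all libraries of a sort. Their part in the levels of Ntn1, Dcc and the other members higher in Interstitial was not tested.

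Among the 6 netrin receptors, 4 were called higher in Interstitial than in Sertoli (66.7%, against 32.7% of all genes) and 1, Neo1, higher in Sertoli (16.7% against 29.1%). Unc5c, a receptor for repulsion by netrins, had 145, 135 and 146 CPM in Leydig, 134, 120 and 136 CPM in Interstitial, and 34.8, 32.7 and 34.0 CPM in Sertoli. Unc5b, the Unc5 receptor known from vessels, had 72.5, 55.9 and 65.3 CPM in Leydig, 64.4, 59.0 and 59.2 CPM in Interstitial, and 22.2, 20.2 and 21.8 CPM in Sertoli. For both genes Leydig and Interstitial overlapped and Sertoli lay well below, by 4.15-fold from Leydig for Unc5c (log2 2.05 ± 0.08 SE, adjusted p = 1.21e-06) and 3.03-fold for Unc5b (log2 1.60 ± 0.12 SE, adjusted p = 2.01e-05).

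Dcc, the receptor for attraction to netrin 1, was near the lower end of the measured range. It had 3.42, 2.76 and 2.83 CPM in Interstitial, 1.5, 1.81 and 1.33 CPM in Leydig, and 0.375, 0.452 and 0.553 CPM in Sertoli, where it rested on 13, 15 and 20 reads. Its order was Interstitial, Leydig, Sertoli without overlap, with a 7.45-fold range (log2 2.90 ± 0.28 SE, adjusted p = 2.86e-05). In Leydig against Interstitial (log2 -0.90 ± 0.23 SE), it lost the call without Leydig A (-0.77) or Interstitial A (-0.75), with adjusted p from 0.000236 to 0.0726, and passed 2-fold without Leydig B (-1.05) or Interstitial B (-1.06).

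Unc5a had 1.66, 2.71 and 1.99 CPM in Interstitial, 1.80, 2.22 and 2.0 CPM in Leydig, and 0.808, 1.36 and 0.913 CPM in Sertoli. Interstitial and Sertoli did not overlap, and the 2.01-fold difference (adjusted p = 0.0281) lost its call without Sertoli A (log2 0.67) or Interstitial B (0.68), with adjusted p up to 0.178. Unc5a shares exon sequence with Hk3 on the opposite strand, which reached 1.27 CPM, and whether the counting used strand is a point the sources used here do not give. Unc5d was at most 2.41 CPM and called in no comparison. Neo1, which binds netrins and repulsive guidance molecules, was abundant in all sorts, from 207 ± 0.092 CPM in Interstitial to 270 ± 5.88 CPM in Sertoli, and its call in Leydig against Sertoli (log2 -0.25) ended with scaling by total reads (-0.15).

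Levels of different genes were compared per kb of merged exons. Plxnb2 led with 45.1 ± 3.47 CPM per kb in Leydig, followed by Plxna1 at 32.8 ± 3.13 and Neo1 at 30.9 ± 0.674 CPM per kb in Sertoli, which lie within their spread. Next came Plxnc1 (28.7 ± 0.23, Sertoli), Sema7a (27.6 ± 1.08, Sertoli), Plxnd1 (26.8 ± 3.03, Leydig), Robo2 (26.1 ± 1.05, Leydig) and Robo1 (24.7 ± 1.21, Sertoli). Within their spread, Plxnc1, Sema7a and Plxnd1 overlapped, as did Sema7a, Plxnd1 and Robo2, and also Plxnd1, Robo2 and Robo1. The spread of Plxnd1 also reached that of Plxna1. Lowest were Slit1 at 0.192 ± 0.0093, Unc5d at 0.222 ± 0.027, Sema4f at 0.228 ± 0.0089 and Dcc at 0.235 ± 0.035 CPM per kb, each in its highest sort.

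**Figure D3:**
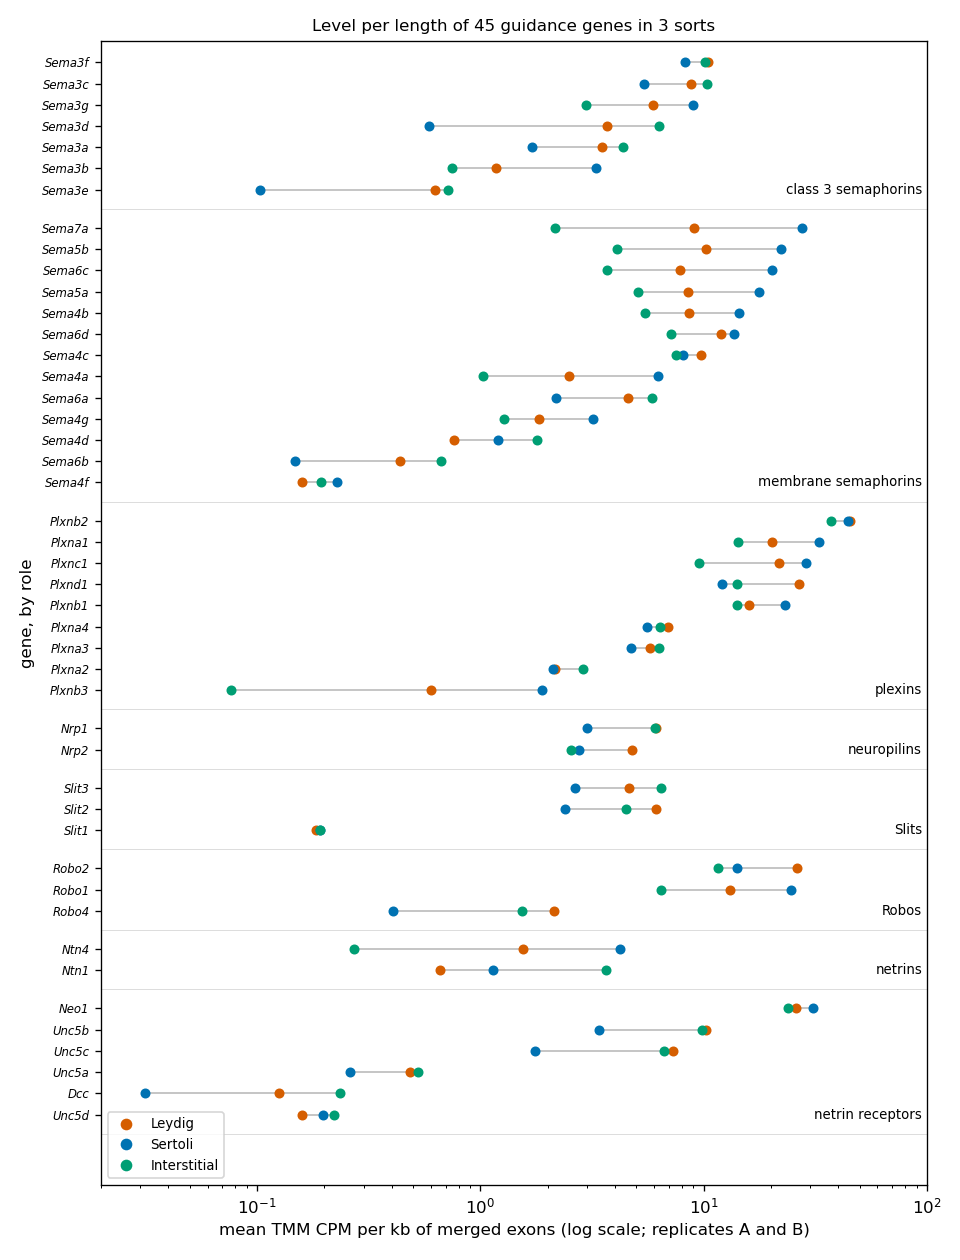
Mean level per kb of merged exons (log axis, replicates A and B) of the 45 genes in the Leydig, Sertoli and Interstitial sorts, grouped by role and ordered by the highest mean. Plexins, Robos and Neo1 hold most of the highest levels, while Slit1, Sema4f, Unc5d and Dcc lie under 0.3 CPM per kb in all sorts.

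Summed per kb, plexins gave 155 ± 4.31 CPM per kb in Sertoli, 145 ± 9.01 in Leydig and 105 ± 2.13 in Interstitial. Neuropilins gave 5.77 ± 0.089 in Sertoli, 10.9 ± 0.42 in Leydig and 8.58 ± 0.27 in Interstitial. Slits gave 5.24 ± 0.027 CPM per kb in Sertoli, 10.9 ± 1.01 in Leydig and 11.1 ± 0.19 in Interstitial, while Robos gave 39.3 ± 2.02, 41.4 ± 1.00 and 19.6 ± 0.23. Class 3 semaphorins gave 28.3 ± 0.52, 34.1 ± 2.40 and 35.5 ± 0.45 CPM per kb in that order.

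**Figure D4:**
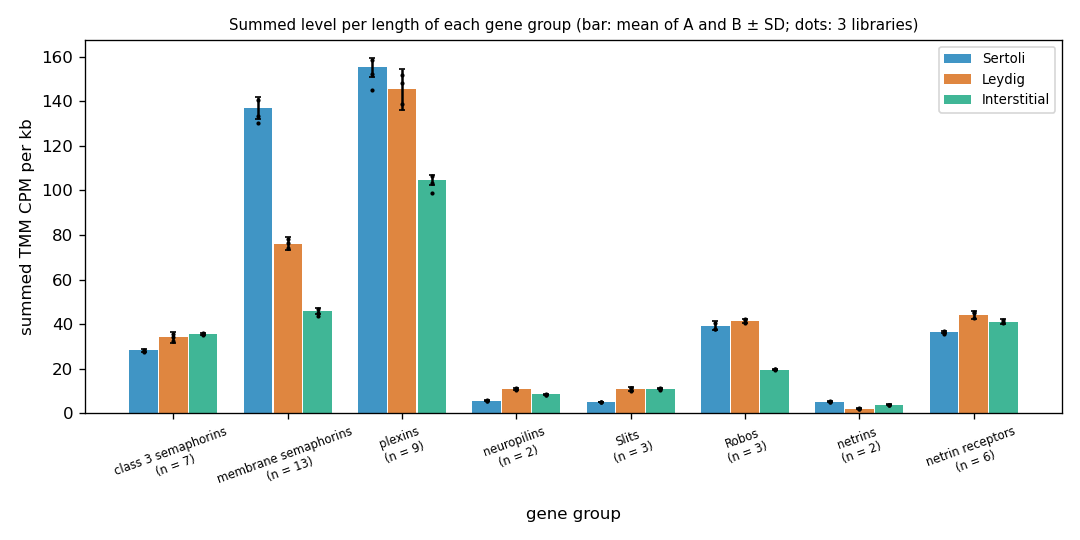
Summed level per kb of the genes of each role in the Sertoli, Leydig and Interstitial sorts, as the mean of replicates A and B with its SD and a dot for each of the 3 libraries. Membrane semaphorins fall from 137 in Sertoli to 46.0 CPM per kb in Interstitial, and Robos stand at 19.6 CPM per kb in Interstitial against 39.3 in Sertoli and 41.4 in Leydig.

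The Leydig sort lay between the others by its mean for 28 of 45 members (62.2%, against 57.6% of all genes tested). All 3 differences were called in the order Sertoli, Leydig, Interstitial for 16 members (10.4% of all genes) and in the reverse order for 6 (4.58%). Placed on a scale from the Interstitial level at 0% to the Sertoli level at 100%, Leydig stood at 16.6 to 34.2% for the 8 Sertoli-enriched members (median 27.8%), and at a median of 24.3% for the 10 Sertoli markers (from -47.7 to 42.5%). A Sertoli-enriched gene lies below 50% on this scale by definition. For the 13 members called and at least 2-fold higher in Interstitial than in Sertoli the median was 32.3% (from -54.3 to 119%), and for the 10 interstitial progenitor markers -13.8% (from -136 to 72.4%). What sets this position was not tested.

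Genes that work with these families were counted from a list of 82 found in the table, of which 80 were tested. Between Interstitial and Sertoli, 27 were called higher in Interstitial (33.8%, against 32.7% of all genes) and 38 in Sertoli (47.5% against 29.1%). Of the 55 cytoplasmic partners among them, 32 were called higher in Sertoli (58.2%) and 11 in Interstitial (20%), and of 25 tested other ligands and receptors 6 in Sertoli (24%) and 16 in Interstitial (64%), with the same all-gene shares. In Leydig against Sertoli the list gave 26 higher in Leydig (32.5%, against 16.9% of all genes) and 25 in Sertoli (31.3% against 20.6%), and in Leydig against Interstitial 36 (45% against 22%) and 14 (17.5% against 23.2%).

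At 5 CPM or more in the higher sort, the largest differences in the list on the Sertoli side were in Rnd2, Pak3 and Mras. Rnd2, a small GTPase that binds plexins, averaged 171 ± 3.06 CPM in Sertoli, 49.3 ± 1.52 CPM in Leydig and 9.99 ± 0.414 CPM in Interstitial. Pak3, a kinase activated by Rac and Cdc42, averaged 286 ± 16.1, 110 ± 3.89 and 18.1 ± 0.249 CPM in that order, and Mras, a Ras family GTPase, 134 ± 4.25, 47.4 ± 0.839 and 16.6 ± 1.38 CPM. Interstitial against Sertoli gave log2 values of -4.09 ± 0.07 for Rnd2, -3.98 ± 0.07 for Pak3 and -3.02 ± 0.08 for Mras (SE, adjusted p = 6.34e-09, 6.34e-09 and 1.71e-08).

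On the other side, Kdr, the main VEGF receptor of endothelial cells, averaged 99.3 ± 2.74 CPM in Interstitial, 86.9 ± 8.12 CPM in Leydig and 13.6 ± 0.385 CPM in Sertoli (log2 of Interstitial against Sertoli, 2.87 ± 0.09 SE, adjusted p = 3.07e-08). Itga1, a collagen-binding integrin, averaged 22.0 ± 2.26, 12.7 ± 0.884 and 3.39 ± 0.232 CPM, and Crmp1, a mediator of semaphorin signalling, 5.34 ± 0.354, 6.39 ± 0.159 and 1.51 ± 0.295 CPM in that order. Met, the receptor of hepatocyte growth factor, was highest in Interstitial at 15.4 ± 3.33 CPM (log2 2.19 ± 0.20 SE against Sertoli, adjusted p = 2.26e-05), and Ablim3, an actin-binding protein, in Sertoli at 13.0 ± 0.347 CPM against 2.27 ± 0.094 CPM in Interstitial.

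The authors' deposited tables, which hold genes with at least a 2-fold change, list 20 members in Leydig against Sertoli, 11 in Leydig against Interstitial and 28 in Interstitial against Sertoli. All have the same sign as in the fit used here. The lists share 19, 11 and 27 members with those called and at least 2-fold here, and differ in Sema5a (here alone) and Unc5a (the authors' deposited table alone) for Leydig against Sertoli and in Sema3c (the authors' deposited table alone) for Interstitial against Sertoli. The largest gap between the sources was for Sema3e in Interstitial against Sertoli, with 3.30 in the authors' deposited table and 2.79 here on the log2 scale.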

How the data were processed

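The deposited table holds unnormalised read counts for each gene in each lane of each library. The authors' aligner was TopHat2 2.0.6, their genome mm10 and their counter HTSeq, per the submitters' processing notes. The sources used here do not give the annotation release or strand setting. The authors also deposited limma tables with log2 fold changes and adjusted p-values, per the file headers. Counts were summed over 4 lanes, and the 5 summary lines were left out. The line for reads that met no gene feature alone held 32.23 to 38.52% of each library's total.

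Replicates A and B of the 3 populations (6 libraries, 3 residual degrees of freedom) were fitted together with edgeR 4.0.16 (glmQLFit, glmQLFTest, TMM, filterByExpr) in R 4.3.3. Unless another tool is named, an adjusted p is from that quasi-likelihood test. Differences are log2 values with their SE and levels are TMM CPM with the SD over A and B. The common biological coefficient of variation was 0.0871. The fit was also run on counts simulated with the spread estimated from these data, a check of the code and not of the model. Symbols, coordinates and exon lengths (merged exons) came from GENCODE M21, which named 36722 of 38560 genes. Upstream sequences came from RefSeq (GRCm38.p6), from 250 bases before each start.

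The members and gene lists were chosen with earlier results of these data known. Library values are given for members called with at least a 2-fold difference and 1 CPM, and other members by level or range. Nrp2 is an exception, with library values given though none of its differences reached 2-fold. Of the wider list, genes at 5 CPM or more with at least 2-fold were named, up to 5 per comparison. Some genes of that list enriched in 1 sort were also named, whatever their level. The 15 alternatives changed the scaling, filter, tool, libraries, lanes or replicate block, or left out 1 library. Floors of 3 reads cover counting error alone, since reads from PCR copies do not count separate molecules. In Leydig, replicate C lay between A and B for 217 of 221 genes that differed 2-fold between them, in Sertoli for 36 of 36 and in Interstitial for 53 of 54. Over all genes tested, C lay between them for 49.0%, 39.5% and 36.5% in the same order. Genes picked for a wide gap between A and B favour that outcome, so these counts alone do not show which library is the mix.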

Additional observations from a re-analysis of the deposited data

How the results depend on the processing

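Of 108 calls of a member in a comparison, 86 held in all 15 alternatives, 22 were lost in at least 1, and none reversed. Members enriched in Interstitial numbered 2 with the first 2 lanes alone, where Dcc joined Ntn1. Leaving out 1 library gave 7 to 8 members enriched in Sertoli, 1 to 2 in Interstitial (2 without Leydig B or Interstitial B, where Dcc joined) and 0 to 1 in Leydig (1 without Leydig B or Interstitial A, where Plxnd1 joined). The members called higher in Leydig and in Sertoli then numbered 17 to 20 and 15 to 17, those higher in Leydig and in Interstitial 18 to 22 and 6 to 8, and those higher in Interstitial and in Sertoli 17 to 21 and 17 to 19. An arm left with 1 library takes the spread of the other sorts.

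Scaling by total reads moved the median log2 difference of all genes from -0.01 to 0.10 in Leydig against Sertoli and from 0.04 to 0.21 in Interstitial against Sertoli. The share of calls higher in the first-named sort went from 45.2 to 58.8% and from 52.9 to 65.2%, and in Leydig against Interstitial from 48.7 to 40.2%. Called members then numbered 20 and 15, 21 and 17, and 20 and 10 in these comparisons, and small differences are read relative to that shift.

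With the replicate letter as a replicate block, 20 members were called higher in Leydig and 19 in Sertoli, 24 in Leydig and 10 in Interstitial, and 21 in Interstitial and 19 in Sertoli, with 8 enriched in Sertoli, 1 in Interstitial and 0 in Leydig. The letters are not said to pair samples, and deviations of same-lettered libraries correlated at 0.02 (Leydig and Sertoli), 0.25 (Leydig and Interstitial) and 0.10 (Sertoli and Interstitial) over 18048 genes. Slit1, Sema4f, Unc5d, Unc5a, Dcc and Sema6b stayed under 4 CPM in every library, where depth limits what can be called.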

Other observations

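The other 5 ratio pairs, chosen after their values were seen and without a test, were as follows per kb of exon (SD, n = 2). Ntn1 to Ntn4 was 13.4 ± 0.27 in Interstitial, 0.447 ± 0.26 in Leydig and 0.269 ± 0.0044 in Sertoli. Slit2 to Slit3 was 1.31 ± 0.049 in Leydig, 0.907 ± 0.033 in Sertoli and 0.695 ± 0.052 in Interstitial. Nrp2 to Nrp1 was 0.781 ± 0.011 in Leydig, 0.934 ± 0.19 in Sertoli and 0.423 ± 0.021 in Interstitial, where the Leydig and Sertoli ratios lie within their spread. Unc5c to Unc5b was 0.721 ± 0.093 in Leydig, 0.522 ± 0.012 in Sertoli and 0.672 ± 0.0089 in Interstitial. Sema5a to Sema5b was 0.830 ± 0.036 in Leydig, 0.796 ± 0.018 in Sertoli and 1.25 ± 0.28 in Interstitial. For Ntn1 to Ntn4 and Sema5a to Sema5b, the Leydig and Sertoli ratios also lie within their spread. For Unc5c to Unc5b, those of Leydig and Interstitial do.

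In the wider list of guidance genes, 8 of 80 tested were enriched in Sertoli (5.71% of all genes), 5 in Interstitial (8.42%) and 0 in Leydig (0.31%). Among those enriched in Sertoli were Robo3, Rnd2, Mras and Pak3. Dscaml1, L1cam, Met, Rnd1 and Pak1 were enriched in Interstitial. Several of these were low in their highest sort, with Robo3 at 1.83 CPM in Sertoli. In Interstitial, L1cam averaged 2.67 CPM, Rnd1 2.83 CPM and Dscaml1 0.722 CPM, the last on 32, 23 and 21 reads.

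A list of 11 neural crest, glial and neuronal genes summed to 228 to 232 CPM in Sertoli, 74.8 to 78.4 CPM in Leydig and 68.7 to 82.5 CPM in Interstitial. Of the 8 tested, 4 were called higher in Sertoli than in Interstitial and 1 the other way. In the Sertoli libraries, 1 gene of the list had no read at all. Erbb3 (167 CPM in Sertoli) and Sox10 (40.2 CPM) held most of the Sertoli sum, while Stmn2 was highest in Interstitial at 2.41 CPM. Whether neural crest, glial or neuronal cells were in a sort, and their part in the guidance gene levels, was not tested.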
